A study of Bos taurus with 10 samples.

Results

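Genes of lipoprotein assembly and secretion were followed in single bovine early blastocysts with and without SOX2. They were chosen by name, as 9 genes of the authors' table: the apolipoproteins *APOA1*, *APOA2*, *APOA4*, *APOB*, *APOC3*, *APOE* and *APOM*, the lipid transfer protein gene *MTTP*, and *TTR*, which encodes the carrier transthyretin. Of the 9 names, 6 have a row among the 20112 genes of the table, and all 6 were tested. *APOA2*, *APOC3* and *TTR* have no row and were not analysed here. The choice was made with earlier results of these embryos in view, because *APOA1* was higher in *SOX2* KO embryos while *HNF4A*, the gene of a nuclear receptor that activates it, was lower. The differences of the 6 genes and of *HNF4A* between the groups are therefore given as a description, without a test.

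The study compared 5 WT and 5 *SOX2* KO embryos, produced by in vitro fertilization and each sequenced whole as 1 library by Smart-seq2, a method that copies polyadenylated RNA from an oligo(dT) primer. WT embryos were injected as zygotes with mRNA of the cytosine base editor BE3 and no sgRNA. *SOX2* KO embryos received the same mRNA together with sgRNAs that convert codons of *SOX2* into premature stop codons, so both groups carried the editor. The labels place collection 7.0 days after fertilization, and the study's text slightly later. The stop codons need not remove the transcript, and an edited embryo can be mosaic. *SOX2* had normalized read counts of 56.5 to 93.4 in WT and of 26.4 to 82.1 in *SOX2* KO embryos, with overlapping groups (limma adjusted p = 0.167), so its RNA does not check the labels. The authors genotyped the embryos on part of each cDNA library, which the read counts do not show. The labels do not say whether embryos of a group came from separate oocyte collections, and p-values measure only the spread between these embryos.

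Apolipoproteins coat the lipoprotein particles that cells release into fluid. *APOB* forms the backbone of the large triglyceride-rich particles, which MTTP fills with lipid in the endoplasmic reticulum, whereas *APOA1* is the main protein of high-density lipoprotein and takes up lipid outside the cell. *APOE* directs particles to endocytic receptors. Liver and intestine express these genes in the adult, the yolk sac endoderm expresses them in the embryo, and HNF4A is a known activator of many of them in these tissues.

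The number of reads on genes ranged from 2223670 to 5134855 over the WT libraries and from 2578284 to 4337342 over the *SOX2* KO libraries. A gene with 3 reads in an embryo is taken as the floor of detection, which corresponds to normalized read counts of 1.77 to 4.45. At least 1 read was found for 15919 to 18092 genes per WT embryo and for 17987 to 19813 genes per *SOX2* KO embryo (exact permutation test, two-sided, p = 0.0159). Reads of the 18S ribosomal RNA gene *RN18S1* made up 26.4% to 37.0% of a WT library and 32.5% to 45.0% of a *SOX2* KO library (exact permutation test, two-sided, p = 0.0635). By the same exact test, p was 0.0317 without the WT embryo nc3 and 0.0397 without the *SOX2* KO embryo ko4. With any other embryo left out, the exact permutation p lay between 0.0635 and 0.143. Normalized read counts are not divided by gene length, so levels are compared between embryos and not between genes.

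*APOA1* was 3.0 times as high in *SOX2* KO as in WT embryos. Its normalized read counts were 110, 214, 167, 251 and 426 in the WT embryos nc1 to nc5, and 777, 836, 542, 646 and 695 in the *SOX2* KO embryos ko1 to ko5. Every *SOX2* KO embryo lay above every WT embryo, and the highest WT embryo was nc5. The WT mean was 233 ± 120 (SD, n = 5) and the *SOX2* KO mean 699 ± 114 (SD, n = 5), from 1500 and 3187 reads. On the scale of log2(normalized read count + 1), the log2 fold change was 1.71, with a standard error (SE) of 0.25.

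WT embryos differed more among themselves in *APOA1* than *SOX2* KO embryos did. The SD of log2(normalized read count + 1) was 0.72 in WT and 0.24 in *SOX2* KO, where the median gene with a mean of at least 100 had 0.27 in both groups. Leaving out nc1, the lowest WT embryo, moved the log2 fold change to 1.47, and leaving out nc5 moved it to 1.96. With any other embryo left out it stayed between these values.

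*HNF4A* was 7.26 times lower in *SOX2* KO than in WT embryos. Its normalized read counts were 54.9, 123, 88.5, 144 and 62.6 in nc1 to nc5 and 21.2, 6.60, 14.0, 4.93 and 18.4 in ko1 to ko5, so the groups did not overlap. The log2 fold change was -2.85 (SE 0.37), from 535 reads in WT and 58 in *SOX2* KO. The groups do not overlap in 9.17% of all tested genes, and nothing is read from the separation for *APOA1* and *HNF4A*, which were chosen for this contrast.

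Within the WT group, *APOA1* and *HNF4A* kept nearly the same proportion in 4 of the 5 embryos. The number of *APOA1* reads per *HNF4A* read was 2.0 in nc1, 1.73 in nc2, 1.89 in nc3 and 1.75 in nc4, but 6.80 in nc5, where *APOA1* was highest and *HNF4A* second lowest. In ko1 to ko5 it was 36.7, 127, 38.8, 131 and 37.7. The 2 *SOX2* KO embryos with the highest values, ko2 and ko4, had only 5 and 6 reads of *HNF4A*. Over all 10 embryos, centred on the mean of each group, the log2 values of both genes had a Pearson correlation of 0.089 (n = 10 embryos, as a description).

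**Figure D1:**
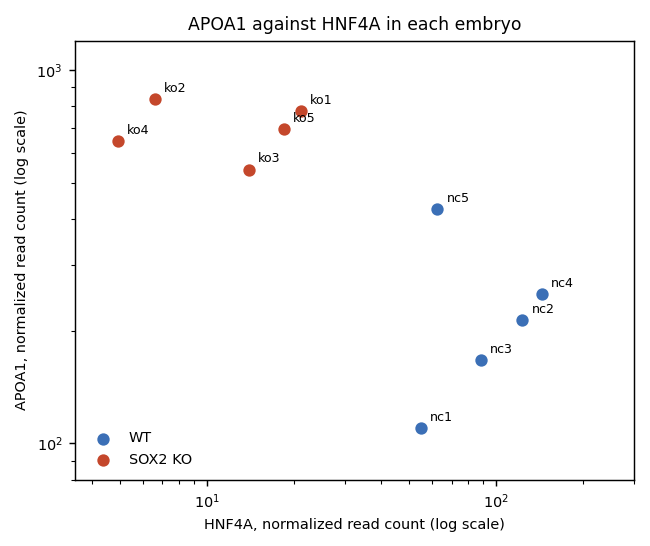
Normalized read counts of *APOA1* (vertical, log scale) and *HNF4A* (horizontal, log scale) in each of the 10 embryos. The WT embryos nc1 to nc4 lie on a rising line, nc5 lies above it at 426, and the *SOX2* KO embryos lie at the upper left, with *HNF4A* at most 21.2 and *APOA1* at least 542.

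*APOE* differed in the opposite direction from *APOA1*. It had normalized read counts of 7.63, 8.90, 43.8, 3.89 and 39.5 in nc1 to nc5 and of 4.45, 0, 2.33, 0 and 1.15 in ko1 to ko5. The WT embryos nc3 and nc5 were far above the other 3, and the groups overlapped by 1 embryo on each side, nc4 and ko1. The values rest on 132 reads in WT and only 7 in *SOX2* KO. Group means were 20.7 ± 19.2 and 1.59 ± 1.87 (SD, n = 5 each), 13.1 times lower in *SOX2* KO, with a log2 fold change of -2.85 (SE 0.67). In 4 of the 5 *SOX2* KO embryos *APOE* was at or below 3 reads. A pseudocount of 0.1 gave -4.35 and a pseudocount of 5 gave -1.66, so the size of the difference depends on the treatment of these low values.

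*APOB* was detected in more reads in *SOX2* KO embryos, at a low level. Its normalized read counts were 0.763, 2.97, 1.99, 3.11 and 0 in nc1 to nc5 and 28.9, 1.32, 11.6, 5.75 and 17.3 in ko1 to ko5. The *SOX2* KO embryo ko2 lay within the range of the WT embryos, while ko1, ko3 and ko5 were the highest. These 3 embryos also had the most genes with a read, 19813, 19022 and 19561, and the 3 highest shares of *RN18S1* reads in their group. The part of these measures in the level of *APOB* was not tested. With the *RN18S1* share as a covariate in the fit, *APOB* had a log2 fold change of 1.27 in place of 2.06 (SE 0.66 without it). WT embryos held 9 of its reads and *SOX2* KO embryos 59, for means of 1.77 ± 1.36 and 13.0 ± 10.8 (SD, n = 5 each).

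*MTTP*, whose product loads lipid onto APOB, did not follow *APOB*. It had 1.53, 8.90, 1.99, 6.99 and 15.3 in nc1 to nc5 and 4.45, 2.64, 2.33, 0 and 2.31 in ko1 to ko5, which is 45 against 10 reads. The groups overlapped, with nc2, nc4 and nc5 above every *SOX2* KO embryo and nc1 and nc3 below most of them. The log2 fold change was -1.10 (SE 0.63). With quantile normalization it was -2.03.

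*APOM*, which carries sphingosine-1-phosphate on high-density lipoprotein, was detected in every embryo and was nearly level between the groups. Normalized read counts were 34.3, 17.8, 18.9, 28.8 and 31.3 in nc1 to nc5 and 37.9, 26.4, 41.9, 29.6 and 26.5 in ko1 to ko5. The log2 fold change of *APOM* was 0.32 (SE 0.29), and stayed between 0.20 and 0.43 under every other setting and with each embryo left out. The median was 0.25 over all tested genes and -0.04 over those with a mean of at least 10, such as *APOM*.

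*APOA4*, an intestinal apolipoprotein, was near the floor of detection. It had at most 3 reads in each WT embryo, 5 reads each in ko1 and ko5, 1 read in ko2 and none in ko3 and ko4. The log2 fold change was 0.41 (SE 0.62), and it turned to -0.47 with quantile normalization and to -0.16 with the *RN18S1* share as a covariate, so no direction is given.

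**Figure D2:**
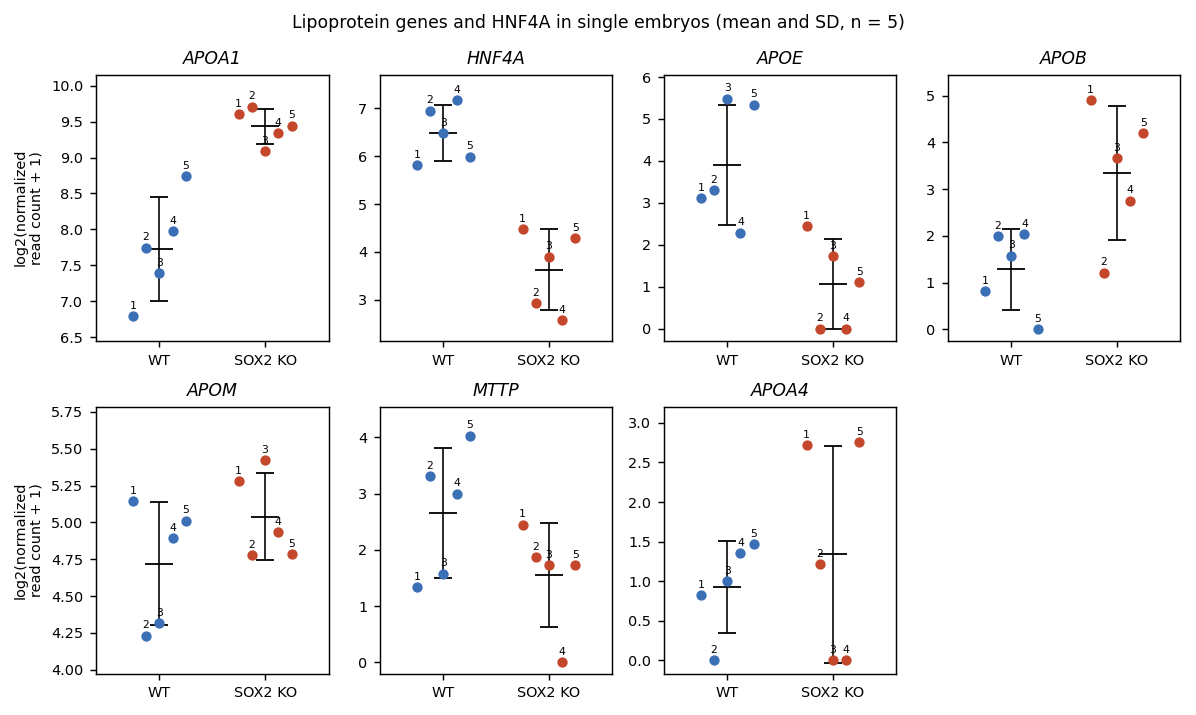
Each point is 1 embryo on the scale of log2(normalized read count + 1), numbered as in nc1 to nc5 (WT) and ko1 to ko5 (*SOX2* KO), with the mean and SD of each group in black and a vertical axis of its own for each gene. *APOA1* and *HNF4A* separate the groups in opposite directions, *APOE* and *APOB* overlap by few embryos, and *APOM*, *MTTP* and *APOA4* overlap.

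As a description and not as a test, 3 of the 6 genes were past the thresholds of the study: *APOA1* and *APOB* higher and *APOE* lower. These thresholds ask for an adjusted p no higher than 0.05 together with a change of 2-fold or more either way. Over all 20056 tested genes the share was 10.1%, with 8.93% higher and 1.16% lower, and nothing is read from the count because this contrast chose the genes. When each embryo was left out in turn, *APOB* was past the thresholds in 3 of 10 fits and not without nc1, nc2, nc4, nc5, ko1, ko3 or ko5. Calls varied with the level of a gene. Genes with a mean under 10, such as *APOB*, were called in 14.3% of cases, 14.1% higher and 0.195% lower. From 10 to under 100, the range of *APOE*, *APOM* and *HNF4A*, the share was 9.03%, with 6.76% higher and 2.27% lower, and at 100 or more, as for *APOA1*, it was 3.63%, with 2.29% higher and 1.34% lower. On the recovered reads DESeq2 called 11.1% and edgeR 9.9% of the genes they tested.

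**Figure D3:**
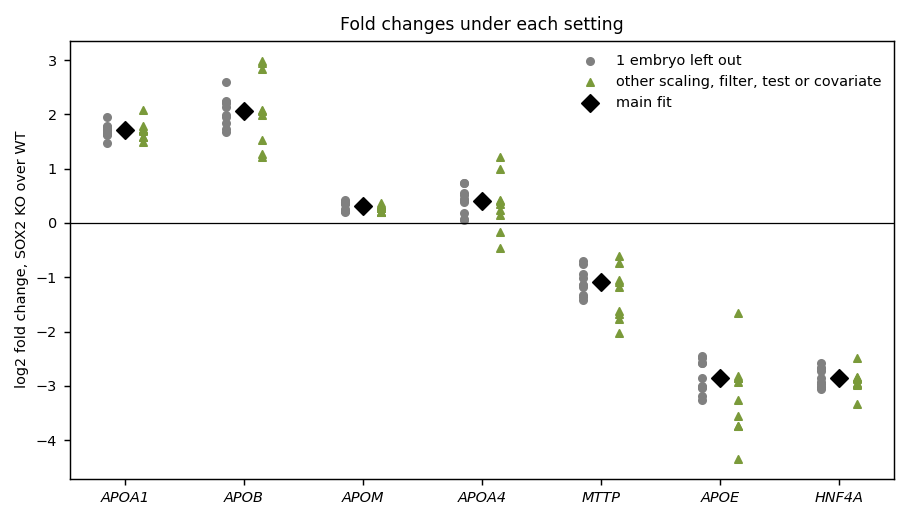
Log2 fold change of each gene between *SOX2* KO and WT embryos (vertical), in the main fit (diamonds), with each embryo left out (circles) and under the other scalings, filters, tests and the covariate (triangles). *APOA1* stays between 1.47 and 2.07 and *HNF4A* between -3.34 and -2.48, while *APOA4* lies on both sides of 0.

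The genes next to *APOA1* and *APOE* were examined because apolipoprotein genes lie in clusters. The order of protein-coding genes was taken from the RefSeq gene table of ARS-UCD2.0, and these neighbours were chosen for their position after values had been seen. *APOC3*, *APOA4*, *APOA5* and *ZPR1* follow *APOA1* on one side. *APOA5* totalled 2 reads in WT and 10 in *SOX2* KO embryos, and the log2 fold change of *ZPR1* was -0.38 (limma adjusted p = 0.211). On the other side *SIK3*, which encodes a salt-inducible kinase and lies beyond 1 unnamed locus, rose (log2 fold change 1.08, SE 0.23, limma adjusted p = 0.00567). The next gene, *PAFAH1B2*, was lower (log2 fold change -0.60, SE 0.17, limma adjusted p = 0.0241) but short of the threshold on the fold change. Thus genes on the same side of *APOA1* had fold changes of opposite sign.

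Around *APOE*, the adjacent *TOMM40* and *NECTIN2* had log2 fold changes of -0.14 and -0.02 (SEs 0.17 and 0.16), with limma adjusted p of 0.580 and 0.942. *APOC4* and *APOC2*, which follow on the other side, have no row in the table, and *CLPTM1* beyond them had 0.23 (limma adjusted p = 0.488). The difference of *APOE* from these neighbours was not tested. Next to *APOB*, *TDRD15* was called higher (log2 fold change 2.28, limma adjusted p = 0.0173), and *LDAH* had -0.13 (limma adjusted p = 0.634). Next to *MTTP*, *C6H4orf54* was called higher (2.06, limma adjusted p = 0.0181), and *TRMT10A* had -0.07 (limma adjusted p = 0.911). *TDRD15* and *C6H4orf54* had means under 10, the level at which limma called 14.1% of genes higher.

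The genes that vary with *APOA1* inside the groups were sought among the 6981 other tested genes with a mean of at least 50. After centring on the mean of each group, the log2 values of *TOB1*, an antiproliferative factor, and *SCIN*, an actin-severing protein, were most like those of *APOA1*, with Pearson correlations of 0.895 and 0.883 (n = 10 embryos, as a description, since all genes of an embryo share its library). The log2 fold change was 0.32 (SE 0.21) for *TOB1* and 1.0 (SE 0.52) for *SCIN*.

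Other genes of the pathway were taken from 6 lists written by function. Of their 113 genes other than *HNF4A*, 99 were tested, and 8 were called higher and 1 lower, which is 9.09% and close to the overall share of 10.1%. Their log2 fold changes had a median of 0.40, or 0.37 with 3 genes that had no read in WT set at their bounds, against 0.25 over all tested genes. Of the 99 genes, 40 had a mean under 10, and the median over all genes with a mean of at least 10 was -0.04. With the *RN18S1* share as a covariate, *LRP2* alone of the 9 called genes stayed past both thresholds. The calls lay in 5 of the lists and none among the other apolipoproteins, so the lists are described one by one.

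**Figure D4:**
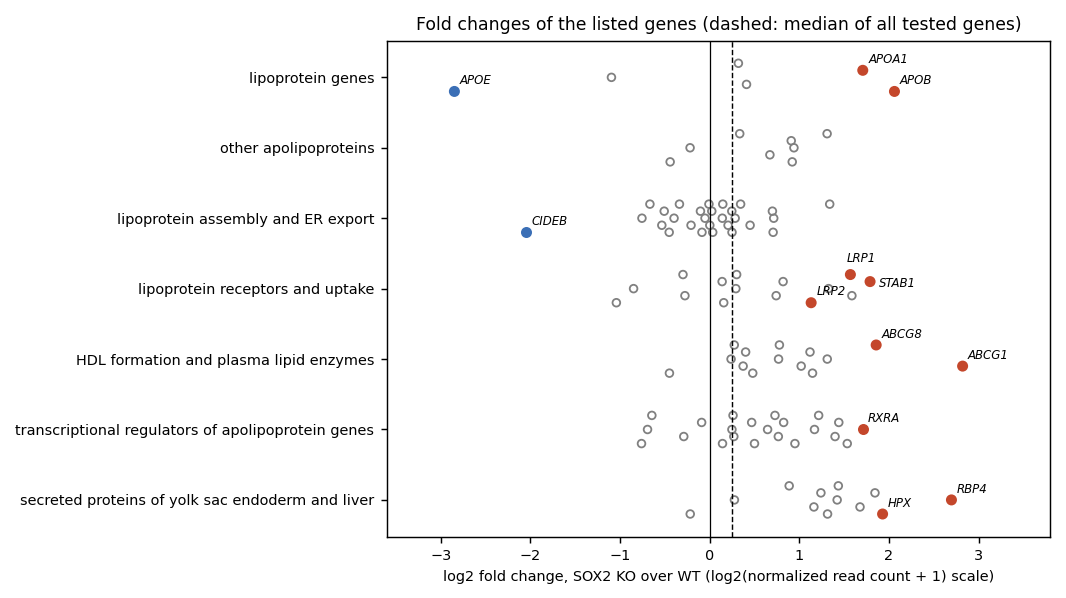
Log2 fold change between *SOX2* KO and WT embryos (horizontal) of each tested gene of the lipoprotein genes and the 6 lists, without *HNF4A*. Filled points are genes past both thresholds, red for higher and blue for lower, and the dashed line is the median of all tested genes at 0.25. The position of *ABCG8* and *HPX*, at 0 in WT, depends on the pseudocount. Assembly and export genes crowd around 0, with *CIDEB* apart at -2.05.

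Receptors held the calls with the most reads. Of 15 tested receptor and uptake genes, 3 were called higher and 0 lower by limma, against 8.93% and 1.16% of all tested genes. The 15 genes had a median log2 fold change of 0.30. The counts were 3 and 0 by DESeq2, 2 and 0 by edgeR, and 5 and 2 at an unadjusted limma p under 0.05. *LRP2*, which encodes megalin, a large endocytic receptor that binds APOE, APOM and transthyretin, rose 2.19-fold. It had normalized read counts of 3206, 2775, 2499, 2092 and 2669 in nc1 to nc5 and of 5621, 5155, 5519, 5270 and 7431 in ko1 to ko5. Every *SOX2* KO embryo exceeded every WT embryo (log2 fold change 1.13, SE 0.18, limma adjusted p = 0.000624). Of the genes at this level, 100 or more, 2.29% were called higher.

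The partners of megalin are known to act with it in endocytosis. Cubilin (*CUBN*) and amnionless (*AMN*) had log2 fold changes of 1.59 and 1.33 from at most 19 reads in any embryo, with limma adjusted p of 0.107 and 0.132. The adaptor *DAB2* had 1774 ± 370 in WT against 2166 ± 303 in *SOX2* KO (SD, n = 5 each, limma adjusted p = 0.234). The chaperone *LRPAP1* had 441 ± 145 and 523 ± 65.3 (SD, n = 5 each, limma adjusted p = 0.279). Of these, only *LRP2* passed the test, and the differences between their fold changes were not tested.

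*LRP1*, a related receptor for APOE-rich remnants, rose from 14.5, 20.8, 23.9, 28.8 and 30.7 in nc1 to nc5 to 75.7, 66.0, 82.6, 44.4 and 92.2 in ko1 to ko5. The groups did not overlap (log2 fold change 1.57, SE 0.27, limma adjusted p = 0.00126). *LRP1* and *LRP2* kept their calls with each embryo left out, while with the *RN18S1* share as a covariate *LRP1* had a log2 fold change of 1.38 and an adjusted p of 0.0510.

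*SCARB1*, the receptor that takes cholesterol from high-density lipoprotein, had 92.5 ± 12.8 and 53.5 ± 19.8 (SD, n = 5 each). Its log2 fold change of -0.85 was too small for a call, although the limma adjusted p was 0.0279. *STAB1*, a scavenger receptor, was called higher with overlapping groups (log2 fold change 1.79, limma adjusted p = 0.0447). Its call held in 4 of 10 fits with an embryo left out and in 3 of 10 other settings, and was lost among others with edgeR, equal totals and quantile normalization. With the *RN18S1* share as a covariate its log2 fold change was 0.51 (limma adjusted p = 0.737).

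**Figure D5:**
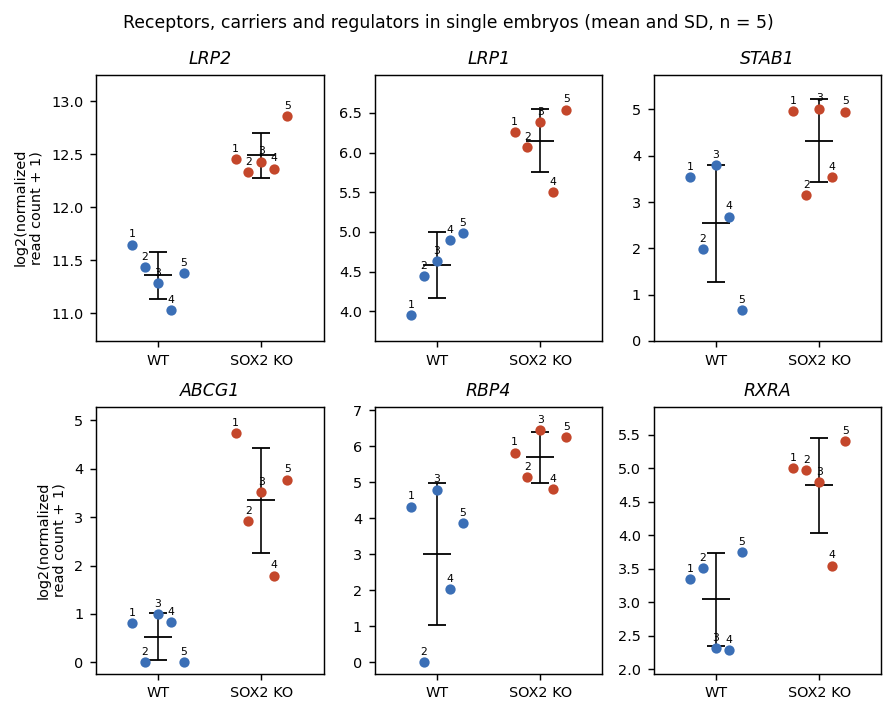
Each point is 1 embryo on the scale of log2(normalized read count + 1), numbered as in nc1 to nc5 and ko1 to ko5, with the mean and SD of each group and a vertical axis of its own for each gene. *LRP2*, *LRP1*, *ABCG1* and *RBP4* are higher in every *SOX2* KO embryo than in any WT embryo, and *STAB1* and *RXRA* overlap. Groups do not overlap in 9.17% of all tested genes. *ABCG1* had at most 1 read in any WT embryo and 3 reads in ko4, at the floor of detection.

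Genes of lipoprotein assembly and export from the endoplasmic reticulum were nearly level. Of 28 tested genes 0 were called higher and 1 lower by limma, against 8.93% and 1.16% of all tested genes. Only 2 of the 28 had a mean under 10. Limma called 6.76% of genes from 10 to under 100 higher, and 2.29% at 100 or more. The 28 genes had a median log2 fold change of 0.01, and 4 had an adjusted p of at most 0.05. DESeq2 and edgeR gave the same counts, and at an unadjusted limma p under 0.05, 5 were higher and 3 lower. *P4HB*, the partner subunit of MTTP, had 914 ± 50.1 in WT against 1185 ± 264 in *SOX2* KO (SD, n = 5 each, limma adjusted p = 0.151). *SAR1A*, a small GTPase of the COPII coat that buds vesicles, had 541 ± 82.9 and 552 ± 70.7 (SD, n = 5 each, limma adjusted p = 0.902), and *SOAT1*, which esterifies cholesterol, had 1065 ± 204 and 1292 ± 217 (SD, n = 5 each, limma adjusted p = 0.252). *MCFD2* and *DGAT1* had log2 fold changes of 0.70 and 0.71, and *SEC24B* had -0.76, below the threshold on the fold change (limma adjusted p = 0.0238, 0.0378 and 0.0383).

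*CIDEB*, which helps to lipidate particles in liver cells, was the gene called lower. It had 11.4, 43.0, 9.94, 41.2 and 24.8 in nc1 to nc5 and 11.1, 0, 11.6, 4.11 and 5.77 in ko1 to ko5, with overlapping groups (log2 fold change -2.05, SE 0.62, limma adjusted p = 0.0335). The highest values were those of nc2 and nc4, the embryos with the most *HNF4A* and also the most *NANOG*, a match that was not tested. Leaving out each embryo in turn kept its call in 5 of 10 fits.

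Among the genes that form high-density lipoprotein and act on lipids in plasma, 2 of 14 were called higher and 0 lower by limma, with a median log2 fold change of 0.77 (0.62 with *ABCG8*, at 0 in every WT embryo, set at its lower bound). DESeq2 and edgeR gave the same counts, and at an unadjusted limma p under 0.05, 5 were higher and 1 lower. Of the 14 genes, 9 had a mean under 10. Limma called 8.93% of all tested genes higher, and 14.1% of those with a mean under 10. *ABCG1*, a cholesterol exporter, had 3 reads in all WT embryos together and 51 in *SOX2* KO embryos, a ratio of normalized reads of 22.1 (95% exact interval 7.14 to 111, for counting error only). Its limma adjusted p was 0.00463 and its groups did not overlap, although ko4 had only 3 reads, at the floor of detection. With the *RN18S1* share as a covariate, adjusted p = 0.171 (log2 fold change 2.07 against 2.82). *ABCG8*, a sterol transporter, had no read in WT and 10, 1, 1, 1 and 4 reads in ko1 to ko5. Set against 3 reads per WT library, the floor of detection, it was at least 1.38-fold higher (limma adjusted p = 0.0346), and 4 of the 10 fits with an embryo left out kept its call. *ABCA1*, the exporter that loads lipid onto APOA1, had 263 ± 42.4 in WT and 195 ± 46.1 in *SOX2* KO (SD, n = 5 each), with -0.45 as the log2 fold change (SE 0.18, limma adjusted p = 0.0967). *LCAT*, *PLTP*, *LIPC* and *LMF1* did not pass the test, their log2 fold changes being 0.37, 1.02, 0.40 and 0.77 (limma adjusted p from 0.0902 to 0.569).

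Of 22 tested regulators other than *HNF4A*, 1 was called higher and 0 lower by limma, against 8.93% and 1.16% of all tested genes. The 22 regulators had a median log2 fold change of 0.57. DESeq2 and edgeR gave the same counts, and at an unadjusted limma p under 0.05, 5 were higher and 0 lower. *RXRA*, the shared partner of lipid-sensing nuclear receptors, rose 3.53-fold, with means of 7.96 ± 3.85 and 28.1 ± 11.2 (SD, n = 5 each, limma adjusted p = 0.0161), and its call was lost without ko5 (log2 fold change 1.54, adjusted p = 0.0601) and with the *RN18S1* share as a covariate (1.66, adjusted p = 0.181).

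*PPARD*, a fatty acid receptor, had a log2 fold change of 0.95 (limma adjusted p = 0.0328), just short of the threshold on the fold change. *SREBF2* and *NR1H2*, regulators of sterol balance, had 0.47 and 0.26 (limma adjusted p = 0.156 and 0.229). *HNF4G*, the paralog of *HNF4A*, had at most 9.22 in any embryo and a log2 fold change of -0.29 (SE 0.57).

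Of 8 tested apolipoproteins outside the 9 genes, limma called 0 in either direction, against 10.1% of all tested genes. The 8 genes had a median log2 fold change of 0.79, and 4 of them had a mean under 10. With *APOH* set at 0 the median was 0.50. *APOH* had no read in WT and a *SOX2* KO mean of 2.51, below the mean WT floor of 2.76. DESeq2 and edgeR called 0 as well, and 2 were higher and 1 lower at an unadjusted limma p under 0.05. *APOO* and *APOOL*, which despite their names belong to the mitochondrial cristae, had -0.44 and -0.22 (limma adjusted p = 0.0663 and 0.636). *CLU*, which encodes clusterin or apolipoprotein J, lay between 5.93 and 76.7 in WT and between 16.4 and 73.5 in *SOX2* KO embryos (limma adjusted p = 0.223).

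Other secreted proteins of yolk sac endoderm and liver were counted because HNF4A drives many of them too. Limma called 8.93% of all tested genes higher, and 14.1% of those with a mean under 10. Of the 12 tested secreted proteins, it called 2 higher and 0 lower, and 10 had a mean under 10. Their median log2 fold change was 1.37 (1.28 with *HPX* at its lower bound). DESeq2 and edgeR called 3 higher and 0 lower each, and at an unadjusted limma p under 0.05, 7 were higher and 0 lower. *RBP4*, the retinol carrier that travels bound to transthyretin, rose from 19.1, 0, 26.8, 3.11 and 13.6 in nc1 to nc5 to 55.7, 34.3, 87.2, 27.1 and 76.1 in ko1 to ko5. The lowest *SOX2* KO embryo, ko4, was barely above the highest WT embryo, nc3. This is a log2 fold change of 2.70 (SE 0.66, with a limma adjusted p = 0.0122). It was 1.94 without nc2, the WT embryo with no read of *RBP4*, and 1.56 with the *RN18S1* share as a covariate (limma adjusted p = 0.353). *HPX*, which binds heme, had no read in WT but 18 reads in *SOX2* KO embryos, as 9, 1, 1, 1 and 6 in ko1 to ko5. Its *SOX2* KO mean was at least 1.46-fold higher against the floor (limma adjusted p = 0.0309), and rests mostly on ko1 and ko5. Its call was kept in 4 of the 10 fits with an embryo left out.

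The embryos were sequenced whole, so fewer cells of a type and less RNA per cell cannot be told apart. Of 9 tested primitive endoderm markers other than *HNF4A*, 0 were called higher and 1 lower by limma, *PDGFRA*, against 8.93% and 1.16% of all tested genes, with the same counts by DESeq2 and edgeR and 3 higher and 1 lower at an unadjusted limma p under 0.05. *PDGFRA* had 207 ± 91.2 in WT and 54.3 ± 27.4 in *SOX2* KO (SD, n = 5 each, limma adjusted p = 0.000709). *GATA6*, a defining factor of this lineage, had 958 ± 162 and 871 ± 57.5 (SD, n = 5 each, limma adjusted p = 0.584). The summed normalized read count of the 9 markers lay between 3301 and 4078 in WT and between 3589 and 4286 in *SOX2* KO embryos. Most of this sum was in *DAB2*, which is also in the receptor list, and *GATA6*. Of the 9 markers, only 1 had a mean under 10, the level at which limma called 14.1% higher. A log2 fold change above 0 was found for 5 of them. Among these was *LAMB1* with 0.71 (limma adjusted p = 0.0399), below the threshold on the fold change.

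Of 14 trophectoderm markers 0 were called in either direction by limma, DESeq2 or edgeR (limma called 10.1% of all tested genes). Only 4 of the 14 had a mean under 10. Limma called 9.03% of genes from 10 to under 100, and 3.63% at 100 or more. At an unadjusted limma p under 0.05, 2 of the markers were higher and 1 lower. The summed markers lay between 26069 and 37954 in WT and between 35373 and 48312 in *SOX2* KO embryos. Most of this sum came from 2 keratin genes, *KRT8* (log2 fold change 0.36, limma adjusted p = 0.352) and *KRT18* (0.73, limma adjusted p = 0.0394). Among the others, *GATA3* was nearly level (0.13, limma adjusted p = 0.617) and *TFAP2C* was lower (-0.49, limma adjusted p = 0.0352). The log2 fold change was above 0 for 12 of the 14 markers. Of 12 epiblast markers 6 were called lower and 0 higher by limma, against 1.16% and 8.93% of all tested genes (5 and 0 by DESeq2, 6 and 0 by edgeR, and 8 and 0 at an unadjusted limma p under 0.05), with sums between 2913 and 3404 in WT and between 1354 and 1791 in *SOX2* KO embryos. Cumulus and granulosa cells, which surround the oocyte, also make APOE. Of 11 of their markers 1, *NR5A1*, was called higher, with no read in WT and 31 in *SOX2* KO embryos, where limma called 8.93% of all tested genes higher. DESeq2 called 1 and edgeR 2 of these markers higher, and 2 were higher at an unadjusted limma p under 0.05. Their sum was 47.5 to 157 and 99.4 to 485, most of it in *CYP11A1* in 4 of the *SOX2* KO embryos, while *AMH* and *FOXL2* had at most 6 reads in any embryo. The part of these lineages and cells in the levels of *APOA1* and *APOE* was not tested.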

How the data were processed

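Single blastocysts were profiled by Smart-seq2. Per the labels and the methods of the study, the authors used Trimmomatic for trimming, HISAT2 for mapping to ARS-UCD1.2 and featureCounts for counting, and scaled each library by a DESeq2 size factor. The deposited values are this normalized signal. The annotation release and strand setting are not given in the sources used here, so overlapping and antisense genes could share reads. All 201120 values (100%) were whole multiples, within 0.01 reads, of 1 step per embryo, and the reads were recovered from these steps. No gene had fewer than 11 reads in total.

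Groups came from column names. limma (version 3.58.1, trend) was fitted to log2(normalized read count + 1) of 20056 genes (mean of 1 or more), between 5 WT and 5 *SOX2* KO embryos, and p-values were adjusted by Benjamini-Hochberg over all of them. Called genes had an adjusted p no higher than 0.05 together with a 2-fold change or more either way. Alternatives were pseudocounts of 0.1 and 5, no filter or a mean of at least 10, equal totals with or without *RN18S1*, quantile normalization, DESeq2 (version 1.42.0, 2136 genes called) and edgeR (version 4.0.16, 1985 genes called) on recovered reads in R 4.3.3, the *RN18S1* share as a covariate, and each embryo left out. The fits were tested on simulated data. Shares were compared by exact permutation in Python 3.11.15. Reads carry no molecular identifiers, so intervals and floors cover counting error only.

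The 9 genes and all lists were chosen with earlier results of these embryos known. Named are the 9 genes, *HNF4A*, *SOX2*, list genes that were called or among the 5 highest of their list, and the 2 genes most like a member with a mean of at least 50. Other list genes named, and the neighbours, were chosen after their values were seen. Some list genes were left out of the lists and are not reported here. Sequences and promoter motifs were not analysed here. Gene order came from ARS-UCD2.0, which is not the build of the files, so no coordinates are given.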

Additional observations from a re-analysis of the deposited data

Results flagged for a closer look

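In 5 of 86 groups of 5 embryos, over 44 genes, 1 embryo stood well apart from the remaining 4, where about 4.3 such groups would arise by chance. *LRP2* was 7431 in the *SOX2* KO embryo ko5 against at most 5621 in the other 4. *LSR* was 126 in the WT embryo nc4 against at least 201 in the others. *NR1H2* was 340 in ko3 against at most 301. *SREBF1* was 215 in nc3 against at most 74.8. *TF* was 0.590 in nc5, which is 1 read, and 0 in the other WT embryos. No pattern is drawn from these embryos.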

How the results depend on the processing

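*APOA1* and *HNF4A* were chosen for this contrast, so their values are a description: with each embryo left out, their log2 fold changes were 1.47 to 1.96 and -3.06 to -2.59. With the *RN18S1* share as a covariate *APOE* had -3.27 in place of -2.85 and was no longer past the thresholds. Of the 6 genes, 1 rather than 2 was called higher with a pseudocount of 0.1, quantile normalization or the covariate, and also with a mean of at least 10, where *APOB* is no longer tested. The number called lower was 2 with quantile normalization, which adds *MTTP*, and 0 with the covariate. With each embryo left out, 1 to 2 were higher and 1 lower. Of the pathway genes, 4 were called higher with a mean of at least 10, 5 with quantile normalization, 1 with the covariate and 4 to 16 with each embryo left out, the lowest without ko5 and the highest without ko4. The 1 gene called lower, *CIDEB*, was not called with a pseudocount of 0.1, a mean of at least 10 or the covariate (0 genes each), and 0 to 2 were called lower with each embryo left out, 0 without nc2, nc4, nc5, ko2 or ko5 and 2 without ko3.

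Over all genes, 1792 were called higher and 232 lower, 88.5% higher. The number higher was 1002 with a pseudocount of 5, 502 with a mean of at least 10 (72.5% of calls), 629 with quantile normalization (58.5%), 137 with the covariate (62.3%) and 771 to 3057 with each embryo left out. The number lower was 447 with quantile normalization, 83 with the covariate and 176 to 267 with each embryo left out. Except where fewer genes were tested, the cause was not tested. Quantile normalization moved the median log2 fold change of all genes by -0.27 and equal totals by -0.11. The difference in the share of *RN18S1* reads was 6.40 percentage points, and 4.58 to 7.84 with each embryo left out (7.84 without nc3, exact permutation p = 0.0317, and 7.70 without ko4, exact permutation p = 0.0397). Without any other single embryo, the exact permutation p was 0.0635 to 0.143. No paired analysis was possible because the labels do not link any WT embryo to a *SOX2* KO embryo. The *SOX2* KO columns also do not carry the replicate numbers of the labels. *APOA4*, *APOB* and *MTTP* had so few reads that differences of the size seen in *APOM* would not be detectable.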

Other observations

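*ABCG5*, which works as a pair with *ABCG8* in sterol export and was named here after its values were seen, had 115 reads in the WT embryo nc5 and at most 4 in any of the other 9 embryos, while *ABCG8* had none in nc5. The same embryo had the highest *APOA1* and *MTTP* among the WT embryos.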
